A study of Mus musculus with 4 samples.

Results

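A set of 9 genes of protein folding in the endoplasmic reticulum (ER) and of the unfolded protein response (UPR) were followed through 4 RNA sequencing libraries of mouse T-helper 2 (Th2) cells. They were chosen by gene symbol among the 50600 genes counted. They comprise the ER chaperones Hspa5, Hsp90b1 and Calr, the ER prolyl isomerase Ppib, the transcription factors Xbp1, Atf4 and Ddit3, and 2 genes on the other strand of a chaperone locus, 1810014B01Rik opposite Hsp90b1 and Snx22 opposite Ppib. All 9 symbols were matched to a single gene identifier each. The gene symbols do not depend on any measured value, but the set was put together with earlier results of these data known.

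All libraries came from primary Th2 cells of strain C57BL/6NJ and form a single group of 4 biological replicates, with no other cell type or treatment among them. Each replicate has a biosample of its own but all name the same donor, and no label says that they came from separate animals. The p-values therefore measure the spread between these samples, and that spread may be technical in part. They leave age and stage as unknown and state that sex was not collected, and a time of 72 h in the file headers is not explained there. Total RNA sequencing is the assay named, whereas the title of the library protocol document refers to poly(A) RNA. In such bulk samples fewer cells of a type and less RNA per cell cannot be told apart.

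Replicates 1, 3 and 4 held 2388255, 1929880 and 1713199 gene counts. Replicate 2 held 5016, so that 3 counts there equal 598.1 CPM (counts scaled to a common library total), against 1.26 to 1.75 CPM in the others. Levels and tests below therefore rest on replicates 1, 3 and 4. Genes whose exons overlap an exon on the other strand held 90.7%, 94.2% and 91.3% of the counts in these 3 replicates. The label was checked against marker genes. All 6 T cell markers (Cd3d, Cd3e, Cd3g, Cd4, Trac, Cd5) and all 6 Th2 markers (Gata3, Il4, Il5, Il13, Ccr4, Ptgdr2) lay above 1 TPM (counts per kb of exon, scaled to a common library total) in the limma test described below. So did 57.2% of all genes tested, and the call by itself is therefore a weak check. Of 10 B and plasma cell markers 6 had no count in these replicates, including Igkc and Jchain, and only Cd79a lay above 1 TPM. The summed level of that list was 9.33, 6.28 and 16.7 TPM in replicates 1, 3 and 4, against 985.9 to 1347 TPM for the 94 pathway genes listed further on. Of 8 myeloid markers 5 had no count, among them Itgam and Adgre1. Cd68 and Csf1r lay above 1 TPM, Csf1r at 140.4 ± 9.75 TPM, which is more than any T cell or Th2 marker listed. The exons of Csf1r overlap those of Hmgxb3 on the other strand. The myeloid list summed to 137.5, 139.4 and 156.3 TPM in replicates 1, 3 and 4, against 86.3, 31.5 and 98.4 TPM for the T cell list and 189.9, 106.5 and 189.2 TPM for the Th2 list. Whether the sum of the myeloid list comes from myeloid cells, or bears on the levels of the 9 genes, was not tested.

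Proteins that are to be secreted or inserted into membranes fold in the ER with the help of chaperones that hold unfolded chains, of isomerases and of enzymes that form disulfide bonds. When unfolded chains build up, the sensors IRE1, PERK and ATF6 start the UPR. IRE1 splices the mRNA of Xbp1, PERK slows translation but lets Atf4 mRNA be translated, and ATF6 is cut into an active transcription factor. Their targets include the chaperones themselves and Ddit3, the gene of CHOP. Activated helper T cells secrete cytokines and enlarge this machinery as they grow.

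A count here is a sequenced fragment assigned to a gene on the strand on which the gene is annotated. Fragments from the other strand of a locus are tallied under whichever gene is annotated on that strand, if any. Whether the strand setting used for counting matches the library kit is stated in no source used here and was not settled from the counts. If the kit reads the other strand, each value comes from RNA of the strand opposite to its gene, over that gene's own exons. Every ratio between opposite genes could then change or turn, and these counts do not give the new values. A gene with nothing annotated opposite would show only fragments from the strand opposite to its own RNA. All levels and ratios here hold for the strand as counted. Markers that define the cells were themselves sparse on their annotated strand where a gene lies opposite. Cd3e had 63 counts against 6587 on Gm48719, Gata3 had 117 against 6284 on Gm13256 and Il5 had 34 against 6764 on Gm12214, over replicates 1, 3 and 4. Levels are given as TPM, which divides counts by exonic length and can be compared between genes, and ratios of opposite genes as counts per kb of exon within a library.

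On the strand as counted, the 9 levels spanned almost 3 orders of magnitude, and the 2 opposite-strand genes stood at the top. With the strands exchanged, their counts would come from RNA on the strand of Hsp90b1 and Ppib. They would still not be the levels of Hsp90b1 and Ppib, which share only 415 and 825 exonic bases with them. 1810014B01Rik was at 4949 ± 720.9 TPM and Snx22 at 2409 ± 66.7 TPM (SD, n = 3). Ddit3 followed at 110.9 ± 10.4 TPM, then Calr at 68.7 ± 31.6, Hsp90b1 at 56.4 ± 18.6, Hspa5 at 26.6 ± 13.5, Atf4 at 26.5 ± 13.1, Ppib at 7.51 ± 3.54 and Xbp1 at 5.50 ± 1.46 TPM. Neighbours in this order whose ranges over the replicates overlapped were Calr and Hsp90b1, Hspa5 and Atf4, and Ppib and Xbp1. The other neighbouring ranges were separate. All 9 passed the filter of 10 counts in total and all 9 lay above 1 TPM (limma on log2(TPM + 0.1), Benjamini-Hochberg adjustment over 10670 genes, adjusted p from 4.25e-11 for Snx22 to 5.54e-04 for Ppib). Of all genes tested 57.2% lay above 1 TPM and 2.45% below, so the call by itself does not set these genes apart. With replicate 2 included, 6 of the 9 lay above, and Calr, Ppib and Xbp1, which had no count there, did not.

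**Figure D1:**
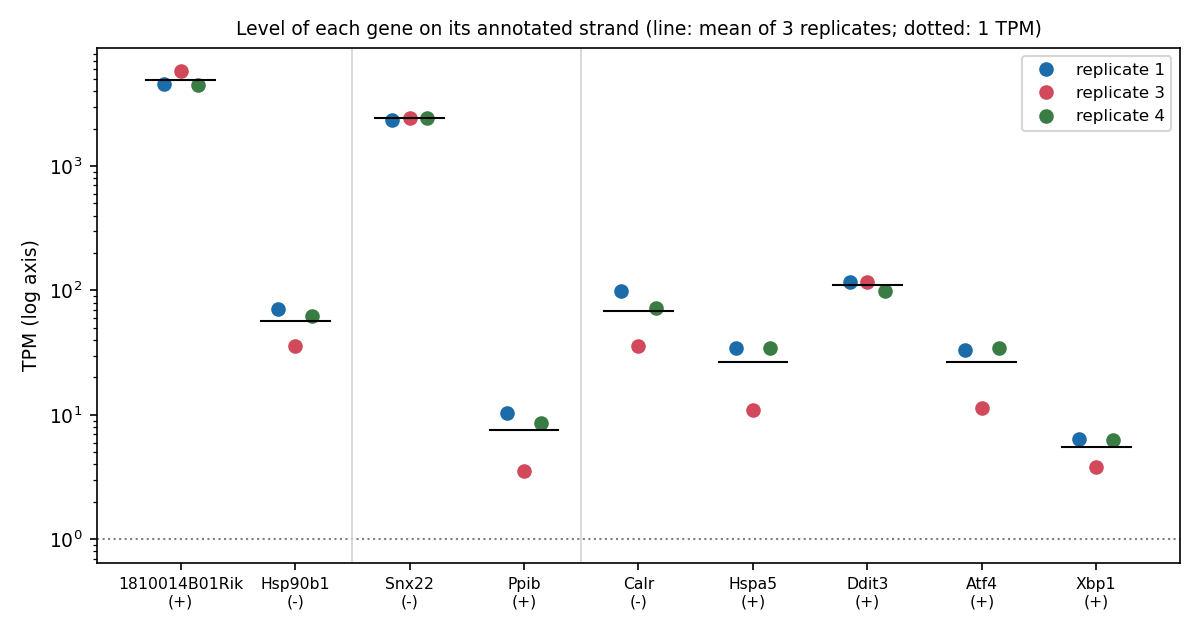
Level of each of the 9 genes on its annotated strand (sign under the name) in replicates 1, 3 and 4, as TPM on a log axis, with the mean as a line and 1 TPM dotted. 1810014B01Rik and Snx22 lie far above the chaperone genes of their loci, and replicate 3 is the lowest point for Hsp90b1, Ppib, Calr, Hspa5, Atf4 and Xbp1.

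Hspa5 encodes BiP, the ER member of the Hsp70 family, which binds unfolded chains and holds the UPR sensors inactive. It lies on chromosome 2 at 34771970 to 34777547 (mm10, plus strand), and no exon is annotated on the other strand. Hspa5 had 243, 64 and 172 counts in replicates 1, 3 and 4, or 34.4, 11.05 and 34.3 TPM. Replicates 1 and 4 were nearly equal and replicate 3 stood 3.07-fold below the highest in CPM. Counting error does not cover this gap, as the exact Poisson 95% interval was 25.5 to 42.4 CPM in replicate 3 and 86.0 to 116.6 CPM in replicate 4.

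Calr encodes calreticulin, a calcium-binding lectin chaperone that holds glycoproteins while they fold. It lies on chromosome 8 at 84841850 to 84846934, minus strand, likewise with no exon opposite. It had 473, 140 and 247 counts, or 98.3, 35.5 and 72.3 TPM. The 3 replicates were all apart, with replicate 3 again the lowest, and the coefficient of variation (CV) of its CPM was 45.5%, close to the 49.99% of Hspa5.

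Hsp90b1 encodes GRP94, the ER member of the Hsp90 family, which folds integrins and Toll-like receptors among other clients. It lies on chromosome 10 at 86690209 to 86705509, minus strand, with 16 exon blocks and 4032 exonic bases. It had 482, 197 and 296 counts, or 71.6, 35.7 and 61.9 TPM. Within its exons the annotation also places Gm15344 and Gm25745 on the same strand, over 84 and 133 bases. Together these had 1 count in the 3 replicates.

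Promoters of ER chaperones are known for the ER stress response element (ERSE), which binds NF-Y at CCAAT and ATF6 or XBP1 at CCACG. The motif, CCAAT and CCACG with 9 bases of any kind between them, was searched on both strands of RefSeq windows reaching from 250 bases before to 50 after each annotated start (GRCm38.p6). It was found in the windows of Hspa5, Calr and Hsp90b1, 3 of the 8 genes with a window, and in 39 of 32851 windows in all, or 0.119%. These matches are shown because, among the 8 genes with a window, they are found in the 3 ER chaperones and in none of the other 5. In each line the fixed letters of the motif are in capitals, with 5 flanking bases on either side, in the gene's own direction.
Hspa5 at chr2:34772020-34772048, plus strand: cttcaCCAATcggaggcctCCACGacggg
Calr at chr8:84847070-84847098, minus strand: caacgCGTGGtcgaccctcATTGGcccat
Hsp90b1, far match, at chr10:86705633-86705661, minus strand: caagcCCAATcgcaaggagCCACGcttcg
Hsp90b1, near match, at chr10:86705528-86705556, minus strand: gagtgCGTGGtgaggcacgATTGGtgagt
The motif lies 65 bases before the RefSeq start of Hspa5 (34772090), 162 before that of Calr (84846931), and 212 and 107 before that of Hsp90b1 (86705444). These starts differ from the gene ends in the GENCODE annotation given above, and the match of Hspa5 lies within the GENCODE gene. In Calr and in the near match of Hsp90b1 it runs in the reverse direction. Among the 77 pathway genes with a window, 10 held the motif, the others being Canx, Creld2, Derl3, Dnajc3, Ero1b, Pdia6 and Syvn1. ERSE-II (ATTGG and CCACG with 1 base between them), TGACGTGG and TGATGCAAT, searched in the same way, were in none of the 8 windows and in 0.0365%, 0.676% and 0.192% of all windows. A match is a description of the sequence and not a measured binding site.

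The gene opposite Hsp90b1 was compared next. 1810014B01Rik, annotated as a transcribed unprocessed pseudogene, lies on the plus strand of chromosome 10 at 86685525 to 86694806. It runs toward Hsp90b1, so that their ends overlap, with 415 exonic bases in common. These are 15.6% of its own exonic length and 10.3% of that of Hsp90b1. 1810014B01Rik had 20246, 21002 and 14135 counts in replicates 1, 3 and 4, and 26 in replicate 2. Per kb of exon this was 7634, 7919 and 5330, against 120, 48.9 and 73.4 for Hsp90b1. As counted, the opposite gene was thus denser in each replicate, by 63.9-fold, 162-fold and 72.6-fold, and its 3 densities did not overlap those of the chaperone gene. In pooled counts the length-corrected ratio was 86.4 (exact binomial 95% interval 81.1 to 92.1, counting error only), and the mean log2 ratio was 6.50 ± 0.35 (SE, n = 3, limma over all pairs, adjusted p = 9.07e-05). The sum over both genes, each counted over its own exons on its annotated strand, was 8679, 10985 and 8423 CPM in replicates 1, 3 and 4. Of these fragments 97.7%, 99.1% and 97.9% lay on the strand of 1810014B01Rik (Wilson 95% intervals 97.5 to 97.9, 98.9 to 99.2 and 97.7 to 98.2).

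Ppib encodes cyclophilin B, a prolyl isomerase of the ER that works with the other chaperones on collagen and many secreted proteins. It lies on chromosome 9 at 66060222 to 66066623, plus strand. It had 57, 16 and 34 counts, or 10.3, 3.53 and 8.68 TPM. These are few counts, with exact Poisson 95% intervals of 18.1 to 30.9, 4.74 to 13.5 and 13.7 to 27.7 CPM in replicates 1, 3 and 4, so that replicate 3 lay apart from the other 2 by more than counting error.

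Snx22, a member of the sorting nexin family of membrane-trafficking proteins, lies on the minus strand at 66065176 to 66069719 and also runs toward its partner. The overlap with Ppib is 825 exonic bases, or 28.5% of Snx22 and 24.96% of Ppib. Snx22 had 11261, 9698 and 8385 counts, or 2332, 2448 and 2446 TPM. It was the steadiest of the 9 genes, with a CV of 3.19%. Its density per kb exceeded that of Ppib 226-fold, 693-fold and 282-fold in replicates 1, 3 and 4. The pooled ratio was 313.5 (259 to 383) and the mean log2 ratio 8.44 ± 0.39 (SE, n = 3, limma, adjusted p = 6.55e-05). Both genes together had 4739, 5033 and 4914 CPM, of which between 99.5% and 99.8% lay on the strand of Snx22. The direction of both ratios rests on the strand setting.

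**Figure D2:**
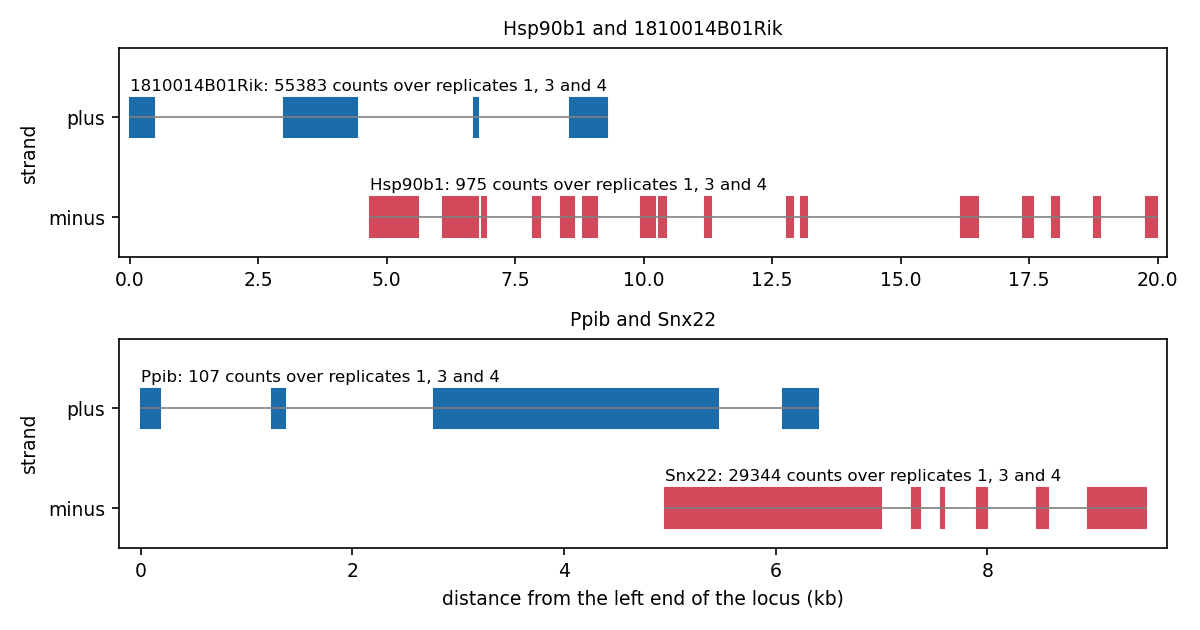
Exon blocks of the 2 loci on the plus strand (blue) and the minus strand (red), as distance in kb from the left end of each locus, with the counts of each gene over replicates 1, 3 and 4. In both loci the genes run toward each other and their ends overlap. The last exon block of Hsp90b1 shares no base with exons of 1810014B01Rik, which overlap inner blocks of Hsp90b1. 1810014B01Rik and Snx22 hold the higher counts, 55383 and 29344.

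Ratios of 10-fold or more are common in these libraries. Over all 2013 pairs of genes with exons overlapping on opposite strands and 300 or more counts, 96.1% differed from equal density (limma, adjusted p below 0.05) and 71.3% differed by 10-fold or more, in the same direction, in each of replicates 1, 3 and 4. How often pairs reach the larger ratios above was not counted. The members had 4 such pairs. All 4 differed from equal density and 3 reached 10-fold.

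The other 2 pairs belong to Ddit3, whose product CHOP is induced by ATF4 and promotes cell death in lasting ER stress. Ddit3 lies on chromosome 10 at 127290774 to 127296288, plus strand. It had 335, 274 and 201 counts, or 117, 117 and 99.0 TPM. The replicates lay close together, with a CV of 10.3%, and replicate 3 was not the lowest. Its end overlaps that of Mars, the cytosolic methionyl-tRNA synthetase gene (127296221 to 127311786, minus strand), by 68 bases. Mars had 192, 145 and 141 counts, or 33.6, 30.9 and 34.7 TPM. In this pair neither gene was under 30.9 TPM in a replicate, and Ddit3 was the denser one by 3.49-fold, 3.78-fold and 2.85-fold (mean log2 ratio 1.74 ± 0.21, SE, n = 3, limma, adjusted p = 0.00115). At its other end, Ddit3 shares 13 bases with Gm4189, a processed transcript on the minus strand that runs away from it. Gm4189 had 5, 6 and 4 counts, and Ddit3 was 16.9-fold, 11.5-fold and 12.6-fold denser (pooled ratio 13.6, interval 8.19 to 24.4, adjusted p = 1.30e-04).

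Atf4 and Xbp1 have no exon on the other strand. Atf4, which turns on amino acid synthesis and redox genes in the integrated stress response (ISR), lies on chromosome 15 at 80255184 to 80257540, plus strand. It had 96, 27 and 71 counts, or 33.3, 11.4 and 34.7 TPM, which in each replicate was close to Hspa5. Xbp1, whose spliced form drives secretory expansion, lies on chromosome 11 at 5520659 to 5525893, plus strand. It had 35, 17 and 24 counts, or 6.45, 3.82 and 6.23 TPM. Gene counts do not tell its spliced form from the unspliced one, nor the translation of Atf4 from its RNA.

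The rest of the pathway was described with 94 genes in 6 groups, which include 7 of the 9 genes above. Of these 94 genes, 81 passed the filter, 48 lay above 1 TPM and 1, Slc7a11, the cystine transporter gene, lay below. The median level was 3.01 TPM, against 0.173 TPM over all 21764 protein-coding genes, of which 4110 lay above. Srp54a and Ern2 had no count. The 0 of Srp54a is uncertain, as the gene has near-identical copies, and Ern2 is an IRE1 form known from mucosal epithelia.

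Among ER chaperones and folding enzymes 18 of 26 lay above 1 TPM and 0 below. Erp29, a disulfide isomerase relative, was the highest at 168.3 ± 8.05 TPM, and Manf, a factor released on ER calcium loss, was at 99.3 ± 2.07 TPM. Both have exons on the other strand. P4hb, the main disulfide isomerase, was at 20.7 ± 8.41 TPM and Canx, the membrane-bound partner of calreticulin, at 20.1 ± 8.29 TPM. Erp29 and its opposite gene Tmem116 had like densities (log2 ratio −0.30, adjusted p = 0.199). Manf lay below 4930524O07Rik by 2.69 on the log2 scale (adjusted p = 2.03e-04).

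Among UPR transcription factors 7 of 9 lay above 1 TPM. Besides Ddit3, Atf4 and Xbp1 these were Atf5, a relative of Atf4, at 193.5 ± 9.60 TPM, Creb3 at 50.7 ± 6.90 TPM, Atf3 at 8.15 ± 2.70 TPM and Cebpb at 5.55 ± 1.64 TPM. Atf5 and Creb3 have exons opposite Il4i1 and Gba2 and were denser than these (log2 ratios 5.31 and 1.397, adjusted p = 5.26e-05 and 0.00228). Cebpb was less dense than Tmem189 (log2 ratio −3.42, adjusted p = 2.63e-04).

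The sensor group also holds genes that are not sensors themselves, such as Eif2s1 and Mbtps2. It stood lowest of the 6 groups as counted, with a median of 0.776 TPM, and with the strands exchanged this order could differ. Of 8 genes 1 lay above 1 TPM, Eif2s1, which encodes the translation factor eIF2 alpha that PERK phosphorylates, at 5.86 ± 2.91 TPM. Ern1, the gene of IRE1 alpha, had 2, 1 and 0 counts. Eif2ak3, the gene of PERK, had 9, 1 and 4 counts, with 1187 counts over the 3 replicates on the opposite gene Gm43292. Atf6 had 20, 1 and 21 counts and Atf6b 10, 3 and 4.

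Of the ISR and ATF4 targets 7 of 16 lay above 1 TPM and 1 below. Slc3a2, the heavy chain of amino acid transporters, was at 21.1 ± 1.99 TPM, and Mthfd2, Psat1 and Phgdh, enzymes of one-carbon and serine metabolism, at 6.54 ± 4.91, 6.43 ± 4.61 and 6.00 ± 2.31 TPM. Trib3 and Chac1, which are induced by CHOP and ATF4 under strong stress, had 3 and 2 counts over the 3 replicates. Ppp1r15a and Ppp1r15b, which restore translation, were less dense than opposite-strand Tulp2 and Gm26616 (log2 ratios −4.10 and −7.29, adjusted p = 0.00794 and 2.74e-04).

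Genes of ER-associated degradation lay above 1 TPM in 7 of 18 cases. They were led by Derl2, a component of the retrotranslocation channel, at 19.7 ± 0.488 TPM, and Os9, a lectin, at 16.9 ± 5.11 TPM. Syvn1, the ubiquitin ligase HRD1, was at 10.4 ± 0.763 TPM. Vcp, the ATPase that pulls substrates out of the membrane, was at 4.45 ± 2.97 TPM, with 17036 counts over the 3 replicates on the opposite gene 1700022I11Rik. Of 17 genes of the translocon and secretory entry 8 lay above, with Ssr2 at 28.4 ± 7.67, Spcs1 at 21.3 ± 2.56, Srp14 at 13.04 ± 3.89 and Sec62 at 11.1 ± 2.78 TPM. Sec61a1, the channel subunit of the translocon, had 34, 2 and 25 counts, whereas Gm44170 on its other strand had 12870, which gives a log2 ratio of −11.97 (adjusted p = 1.89e-04).

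**Figure D3:**
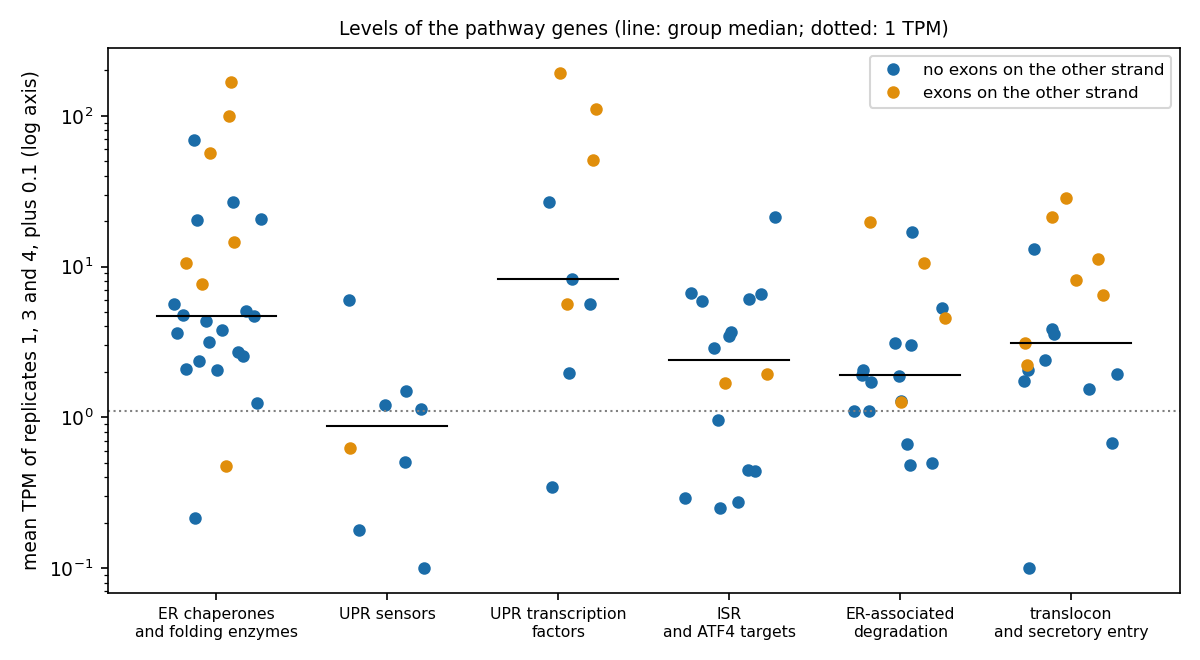
Mean TPM (plus 0.1, log axis) of each of the 94 pathway genes by group, with genes that have exons on the other strand in orange and the others in blue. The line is the group median and the dotted line 1 TPM. The sensor group has the lowest median, at 0.776 TPM, and orange points lead the chaperones, the transcription factors, the degradation genes and the translocon genes.

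The level went with the presence of exons on the other strand. If the strand setting does not match the kit, this describes where a gene is annotated opposite the transcribed one, and not the pathway genes' own RNA. Over all protein-coding genes 2098 of 4801 with such exons lay above 1 TPM, against 2012 of 16963 without. Of the 94 pathway genes 25 have such exons, and 18 of these lay above, against 30 of 69 without. Their median level was 10.3, 4.29 and 11.3 TPM in replicates 1, 3 and 4, against 2.95, 1.15 and 2.93 TPM for the others. The difference of the medians was 1.78, 1.81 and 1.91 on the log2(TPM + 0.1) scale, higher in 3 of 3 replicates, with an exact sign-flip permutation p of 0.25, two-sided, the smallest that 3 libraries allow. Over all protein-coding genes the medians were 1.80, 1.08 and 1.83 TPM with such exons and 0 TPM without them in each replicate. The differences there were 4.25, 3.56 and 4.27 on the same scale, larger than in the pathway list. As the lower median is 0 TPM, their size rests on the added 0.1. For each of the 25 the densest opposite gene was taken, which favours the opposite side where there are several. In 8 cases the pair had too few counts. Of the other 17, the opposite gene was denser in 12, the pathway gene in 4 (Ddit3, Atf5, Creb3 and Derl2), and 1, Erp29, was not called. The same tally over all genes was not made.

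Each replicate was next set against the other 2 with edgeR's quasi-likelihood test over 6922 genes. This compares libraries and not conditions. Replicate 3 stood apart. Of the 9 genes 4 were lower there, Hspa5 by a log2 change of −1.47 ± 0.28 (SE, adjusted p = 1.33e-05), Calr by −1.11 ± 0.22 (adjusted p = 2.74e-05), Atf4 by −1.404 ± 0.38 (adjusted p = 0.00418) and Hsp90b1 by −0.74 ± 0.20 (adjusted p = 0.00451). Of all genes tested 12.4% were lower in replicate 3. 1810014B01Rik was higher there, by 0.51 ± 0.08 (adjusted p = 3.76e-09), as were 2.79% of all genes. Snx22 and Ddit3 had changes of 0.20 and 0.27 and Ppib and Xbp1 of −1.265 and −0.57, none of which passed (adjusted p = 0.101, 0.363, 0.0563 and 0.476). The ratios within a locus, which need no scaling between libraries, were largest in replicate 3 for 3 of the 4 pairs, at 162 for 1810014B01Rik to Hsp90b1, 693 for Snx22 to Ppib and 3.78 for Ddit3 to Mars. That of Ddit3 to Gm4189 was smallest there, at 11.5. For both pairs of Ddit3 the order of the replicates lies within counting error. The share of Ddit3 in its pair with Mars had Wilson 95% intervals of 60.7% to 69.8% in replicate 3 and 59.4% to 67.6% in replicate 1. How many of all pairs had their largest ratio in replicate 3 was not counted.

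Over the whole pathway list, which includes 7 of the members, the same replicate was low. Hspa5, Calr, Atf4 and Hsp90b1 from above are therefore counted again below, in all and by group. Of 59 pathway genes tested 19 were lower in replicate 3 and 0 higher, where 29 had an unadjusted p under 0.05 in either direction. With scaling factors from genes without opposite-strand exons the split turned to 4 lower and 11 higher, and DESeq2 called 1 lower and 0 higher, with 13 and 0 at an unadjusted p under 0.05. The 6 largest changes were those of Atf6 (−4.01), Sec61a1 (−3.59), Asns (−2.92), the asparagine synthetase gene, Psat1 (−2.72), Ppp1r15b (−2.46) and Vcp (−2.35). By group, 8 of 20 chaperones and folding enzymes were lower, 2 of 3 genes of the sensor group, 1 of 8 transcription factors, 4 of 8 ISR and ATF4 targets, 2 of 10 degradation genes and 2 of 10 translocon genes. Those of the sensor group were Atf6 and Eif2s1 (−1.42), of which Eif2s1 encodes a target of PERK and not a sensor. The pathway genes were lower in 7 of 21 cases with exons on the other strand and in 12 of 38 without. Over all genes of these classes 4.82% and 22.0% were lower, beside 12.4% of all genes. Pathway genes of high level with exons on the other strand differed in this. Atf5, Erp29, Ddit3, Manf and Creb3 did not pass, with changes of 0.28, 0.17, 0.27, 0.22 and −0.0016. Hsp90b1 was called lower, at −0.74.

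Genes outside the pathway were low in replicate 3 too. The median change in replicate 3 was −0.82 over the 3060 genes without opposite-strand exons and 0.12 over the 3862 with them. For the pathway genes the medians were −1.09 (38 genes) and −0.57 (21 genes). T cell markers were lower in 4 of 6 cases, among them Cd4 (−1.21) and Cd5 (−1.21), and Th2 markers in 3 of 6, among them Il13 (−2.08). In plain CPM 54.6% of the 6922 tested genes were below both other replicates in replicate 3. The share was 75.0% of those without opposite-strand exons and 38.3% of those with them. Of the 9 genes here 6 were below both. The part of these library-wide differences in the members' changes was not tested.

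These calls depended on the scaling. With scaling factors taken from the genes without opposite-strand exons, the median of all genes moved from −0.11 to 0.72, and the split went from 193 higher and 858 lower genes to 2809 and 118. Then 0 of the 9 genes were lower and 3 were higher, namely 1810014B01Rik (1.35), Ddit3 (1.11) and Snx22 (1.04). Hspa5 (−0.63, adjusted p = 0.0576), Atf4 (−0.57, 0.225) and Calr (−0.27, 0.363) kept the sign without passing, while Hsp90b1 turned to 0.10 (0.728) and Xbp1 to 0.27 (0.697). DESeq2, under its own scaling, called only Hspa5 lower among the 9 (adjusted p = 0.0498). In replicates 1 and 4 edgeR called 0 of the 9 genes in either direction, where 1 and 0 of them had an unadjusted p under 0.05, and over all genes it called 0.0289% higher in replicate 1, and 0.0144% higher and 0.0289% lower in replicate 4.

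**Figure D4:**
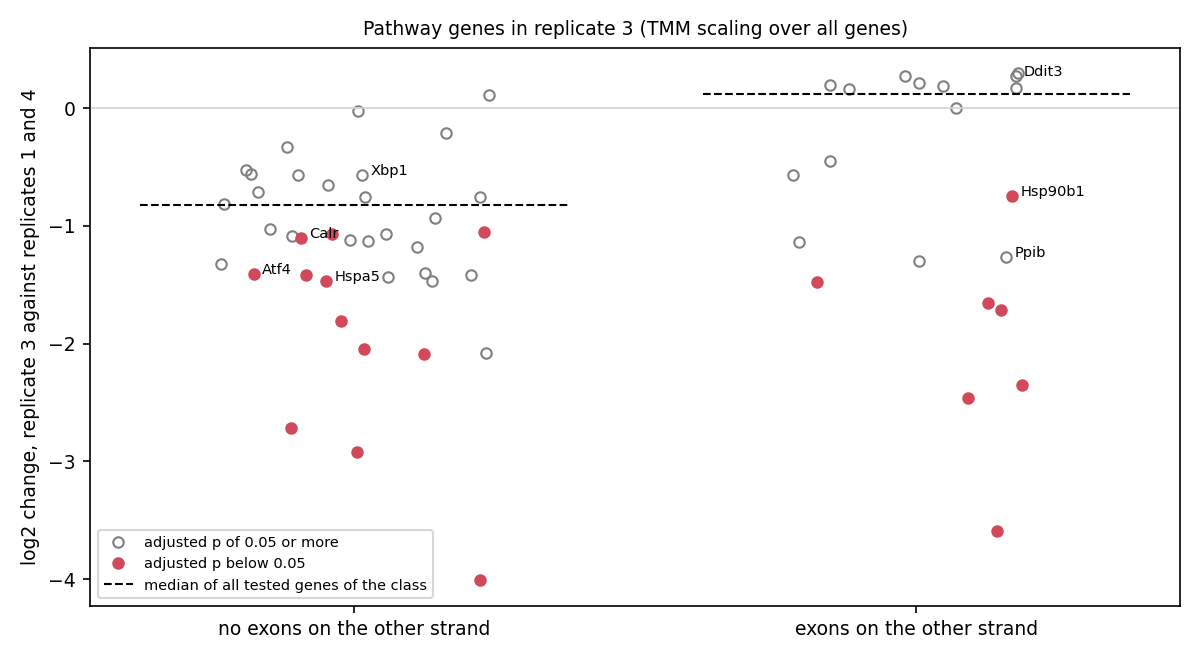
Log2 change of the 59 tested pathway genes in replicate 3 against replicates 1 and 4 (edgeR, TMM scaling over all genes), split by whether exons lie on the other strand. Filled points have an adjusted p below 0.05 and dashed lines mark the median of all tested genes of the class, at −0.82 and 0.12. Hspa5, Calr and Atf4 lie below the line of their class, at −1.47, −1.11 and −1.404.

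The gene most like Hspa5 in its course over replicates 1, 3 and 4 was Pdia6, an ER disulfide isomerase, at a Euclidean distance of 0.022 between log2 CPM deviations among 2961 genes with a mean count of 50 or more. Its CPM were 35.6, 11.4 and 34.4. Tardbp, Eef1b2, Srp72 and Fam107b followed, at distances of 0.026 to 0.063. The nearest to 1810014B01Rik were 6530413G14Rik and Gm20412, at distances of 0.016, then Gm26865, Pter and Gm14066, at up to 0.024. With 3 libraries, likeness means little more than how low or high replicate 3 was.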

How the data were processed

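The authors deposited raw fragment counts per gene for each library, made per the file headers by featureCounts (version 1.4.6-p4) over the exons of GENCODE vM13, on mm10 alignments whose names refer to STAR. Both mates had to map and strand setting 1 was used, per the file headers. Whether this fits the library kit was not settled. The recorded command holds no option for multi-mapping or ambiguous fragments. No version of STAR is stated. Symbols came from GENCODE vM21 by identifier, and 224 of 50600 identifiers had none.

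From the counts, CPM and TPM were computed in Python 3.11.15 (scipy 1.17.1, numpy 2.4.6, pandas 2.3.3), and exon overlaps of at least 1 base by bedtools 2.31.1. limma 3.58.1 tested log2(TPM + 0.1) against the level of 1 TPM for genes with 10 or more counts in total. Pairs were tested with limma on log2 of (count + 0.5) per kb, for pairs with 300 or more counts. Libraries were compared with edgeR 4.0.16 (R 4.3.3, TMM, mean count of 10 or more), with DESeq2 1.42.0 as an alternative. Adjustment was by Benjamini-Hochberg over all features, at 0.05. That test takes a single library to have the spread of the remaining ones. The SE of an edgeR change was taken from its size and F value. Fragments carry no molecular identifiers, so intervals and floors (3 counts) cover counting error only.

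The genes, lists and tests were chosen with earlier results of these data known. All 9 genes, the genes overlapping them, up to 4 genes per pathway group by TPM, called genes (up to 6 per library), up to 5 nearest profiles and marker genes were to be named. Eif2ak3, Ern1, Atf6, Atf6b, Trib3, Chac1, Ppp1r15a, Ppp1r15b, Sec61a1, Syvn1, Vcp and genes listed as not passing were named after their values were seen, where that rule did not reach them.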

Additional observations from a re-analysis of the deposited data

Results flagged for a closer look

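In replicate 2, which entered the comparisons only as an alternative, 1810014B01Rik had 26 counts and Snx22 had 15, above the limit of 3 that a count of 0 allows, while Hsp90b1 had 1 and Ppib 0. Over all 4 replicates, 3 genes had a replicate far from the rest, and in each case it was replicate 2. Snx22 was lowest there, at 2990 CPM, Ddit3 highest at 398.7 CPM on 2 counts, and Atf4 highest at 199.4 CPM on 1 count. The last 2 values lie under the floor of 598.1 CPM. Such a gap arises by chance in about 1 in 20 groups.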

How the results depend on the processing

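The 4 pair ratios kept their direction and still differed from equal density under each alternative run (a larger pseudocount, a lower pair minimum, replicate 2 included, a replicate left out). The 10-fold call of Ddit3 to Gm4189 did not hold in each. Its mean log2 ratio fell to 3.27 with the larger pseudocount and to 2.79 with replicate 2, which is less than 10-fold. Without one replicate the log2 ratio ranged from 6.09 to 6.76 for 1810014B01Rik to Hsp90b1, from 7.96 to 8.76 for Snx22 to Ppib, from 1.65 to 1.86 for Ddit3 to Mars and from 3.45 to 3.72 for Ddit3 to Gm4189. With replicate 2 the pathway genes above 1 TPM numbered 10. Without one replicate they ranged from 34 to 66, and all 9 genes of interest remained above. A pseudocount of 1 put the class difference of the pathway list at 1.488. Of the 9 genes, those lower in replicate 3 numbered 1 in DESeq2 and 0 with scaling from genes without opposite-strand exons, and those higher numbered 2 without a filter, 0 with replicate 2 and 3 under that scaling. Under it Hsp90b1 turned to 0.097 and Xbp1 to 0.27. Leaving out a further replicate there leaves single libraries and no test. Over all genes, those lower in replicate 3 numbered 858 as reported, 379 with RLE size factors, 36 in DESeq2 and 560 without a filter. The cause was not tested. Depth limits Ppib, Xbp1 and the sensors. No paired analysis was possible because the samples form a single group.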
